A study of Mus musculus with 15 samples.

Results

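Growing mouse oocytes make far more mRNA than they translate and keep it in a silent, stable form until meiosis resumes. In this store, proteins bound to the 3′ UTR hold an inactive complex on the cap, while short poly(A) tails keep translation low. At maturation the tails of many stored mRNAs are lengthened in the cytoplasm, tail-binding proteins are recruited, and the mRNAs are translated without new transcription. The 10 genes described here encode proteins of this system. They were chosen by name for this role, namely Cpeb1, Dazl, Ybx2, Zar1, Lsm14b, Ddx6, Patl2, Eif4enif1, Eif4e1b and Pabpc1l. They are 10 of the 55401 gene identifiers counted, and all 10 were among the 21009 genes with enough counts to be tested.

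The counts come from 15 SMART-Seq2 libraries of germinal vesicle stage oocytes, each made from 6 pooled oocytes of Kunming mice. The 5 groups hold 3 libraries each. IVV oocytes (Invivo in the labels, replicates 2, 3 and 4) grew in the animal and were taken by puncture of antral follicles. The other oocytes grew inside preantral follicles that were dissected from mice aged 12 to 14 days and cultured without neurotrophin-4 (IVG, labels C_10d and C_6d) or with it (IVG-NT, labels NT_10d and NT_6d), until day 10 or day 6. All cultured follicles shared the same basal medium. The age of the mice behind the IVV oocytes is not tied to these libraries in the sources used here, so culture and age cannot be told apart in comparisons with IVV. A pool of 6 oocytes does not show how single oocytes differ, and fewer cells holding an mRNA cannot be told apart from less of it in each cell. SMART-Seq2 primes cDNA on the poly(A) tail, so a library reads polyadenylated mRNA and neither tail length nor translation. The study's methods speak of 3 replicated experiments, but the labels do not say which oocytes shared one, and p-values measure the spread between libraries only.

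Library totals lay between 5954262 and 55593251 counts. The 2 smallest were replicates 1 and 2 of IVG-NT day 6, with 5954262 and 7125348 counts, and the correlation between libraries in that group (Spearman's rho 0.51 to 0.54 across genes) was below that in every other group (0.77 or more). In 9 libraries, called rRNA-rich here, 12.5 to 37.9% of counts fell on CT010467.1, which is annotated as rRNA. In the other 6, called rRNA-poor, the share was 0.187 to 0.714%. The rRNA-rich libraries were replicates 1 and 2 of each cultured group and replicate 3 of IVV. The labels name no batch for this split, but it is present in every group, so values are also given within each kind. The 10 oocyte markers checked (zona pellucida genes, Gdf9, Bmp15 and others) were detected in all 15 libraries, with a summed level of 12000 to 21700 CPM (counts-per-million). Summed granulosa cell markers reached 49.2 to 399 CPM, theca and stroma markers 0.288 to 32.7 and blood cell and macrophage markers 0 to 65.8.

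Levels are given as CPM after TMM scaling, which removes differences in library size and composition, and as CPM per kilobase (kb) of annotated exon where genes are compared with each other. A gene was called different when the log2 fold change lay beyond 1 and the unadjusted P of edgeR's quasi-likelihood test was under 0.05, which is the study's own threshold. Adjusted p-values are Benjamini-Hochberg values over all genes of the fit. In the edgeR fit of group means over all 15 libraries, with its filter on low counts, 0 genes had one under 0.05 in any comparison. Without IVG-NT day 6 replicate 3, that fit gave 2411 (IVG-NT against IVG at day 6), 2549 (IVG-NT day 10 against day 6) and 1218 (interaction), with 0 of the 10 genes among them. DESeq2's Wald test gave 51 to 715 genes under 0.05, depending on the comparison, and edgeR without a filter 0 to 941, with 0 of the 10 genes among them in either.

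Dazl mRNA is itself known to be stored and then translated in maturation, and the 3′ UTRs of all 10 genes were read for the element that CPEB1 binds. In the basic set of GENCODE vM21 (GRCm38), the protein-coding transcript with the longest coding part was taken for each gene. The letters TTTTAT or TTTTAAT, the cytoplasmic polyadenylation element (CPE), were searched on the transcript strand only. Of the 8 genes whose 3′ UTR was at least 100 bases long, 1, Ybx2, held a CPE in the last 100 bases, against 17.7% of 19174 genes read the same way. In the transcripts taken, the 3′ UTRs of Cpeb1 (61 bases) and Eif4e1b (73 bases) were shorter than this window. These transcripts have 1777 bases, beside 4192 annotated exon bases, for Cpeb1 and 841 beside 2255 for Eif4e1b. Other transcripts of a gene, which can have longer 3′ UTRs, were not searched. The polyadenylation signal AATAAA or ATTAAA, whose first letters can overlap the end of TTTTAAT, stood in the last 100 bases of 7 of the same 8 genes, against 77.7% of the 19174 genes. Over the whole 3′ UTR, 5 genes held 17 CPEs, or 1.82 per 1000 bases, against 1.34 per 1000 bases over 20661 genes. The CPE nearest the 3′ end is shown for 4 of these 5 genes with its flanks, 5′ to 3′ in DNA letters and with the CPE in capitals, to show the letters that were counted and where they lie.
Ybx2: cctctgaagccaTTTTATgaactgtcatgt
Dazl: aagtcaaaattcTTTTATgtcaccaagtca
Lsm14b: aatggaaccaaaTTTTATttggcacatgtg
Ddx6: aagccatgttaTTTTAATtggatacttttt

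The Ybx2 element lay 62 bases before the annotated end of a 3′ UTR of 414 bases. In Dazl the distance was 373 bases (UTR of 1852 bases, 6 CPEs), in Lsm14b 816 (1177 bases, 2 CPEs) and in Ddx6 828 (4250 bases, 7 CPEs). A match to these letters is not a measured binding site, and an mRNA that ends upstream of the annotated end would place the element elsewhere.

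Per length, the 10 genes spanned a wide range of levels, and the order at the top changed from library to library. Median levels over the 15 libraries were 133 CPM per kb for Cpeb1, 99.9 for Eif4e1b, 95.7 for Zar1, 68 for Eif4enif1, 56.4 for Ybx2, 53.1 for Dazl, 44.7 for Pabpc1l, 26.2 for Lsm14b, 24.2 for Patl2 and 1.42 for Ddx6. Zar1 was the highest of the 10 in 7 libraries, Eif4e1b in 5, Cpeb1 in 2 and Eif4enif1 in 1, while Ddx6 was the lowest in 14 and Lsm14b in 1. Neighbours in the order of group means overlapped for the most part. In IVV the ranges were separate between Cpeb1 and Dazl, between Pabpc1l and Patl2 and between Patl2 and Ddx6. Patl2 and Ddx6 were also separate in IVG and IVG-NT at day 10 and in IVG at day 6, and in IVG-NT at day 6 the separate neighbours were Ybx2 and Lsm14b. Exon length here is the union over all annotated transcripts, and for Zar1 it counts 3465 bases, of which the coding transcript takes 1429. With the length of the coding transcript, an alternative added after the data were seen, the medians were 315 CPM per kb for Cpeb1, 268 for Eif4e1b and 232 for Zar1, and Ddx6 at 1.89 was still the lowest.

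The genes also differed in how steady they were. Ybx2 and Patl2 had an SD of log2 CPM over the 15 libraries of 0.47 and 0.56, and of 8834 genes averaging at least 10 CPM, 2.51 and 4.84% had a smaller one. At the other end stood Lsm14b (SD 2.05, 64.1% of genes smaller), Eif4e1b (1.52, 51.7%), Zar1 (1.33, 43.7%) and Ddx6 (1.17, 35.2%). Cpeb1, Dazl, Eif4enif1 and Pabpc1l lay between, with SDs of 0.72 to 0.85.

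**Figure D1:**
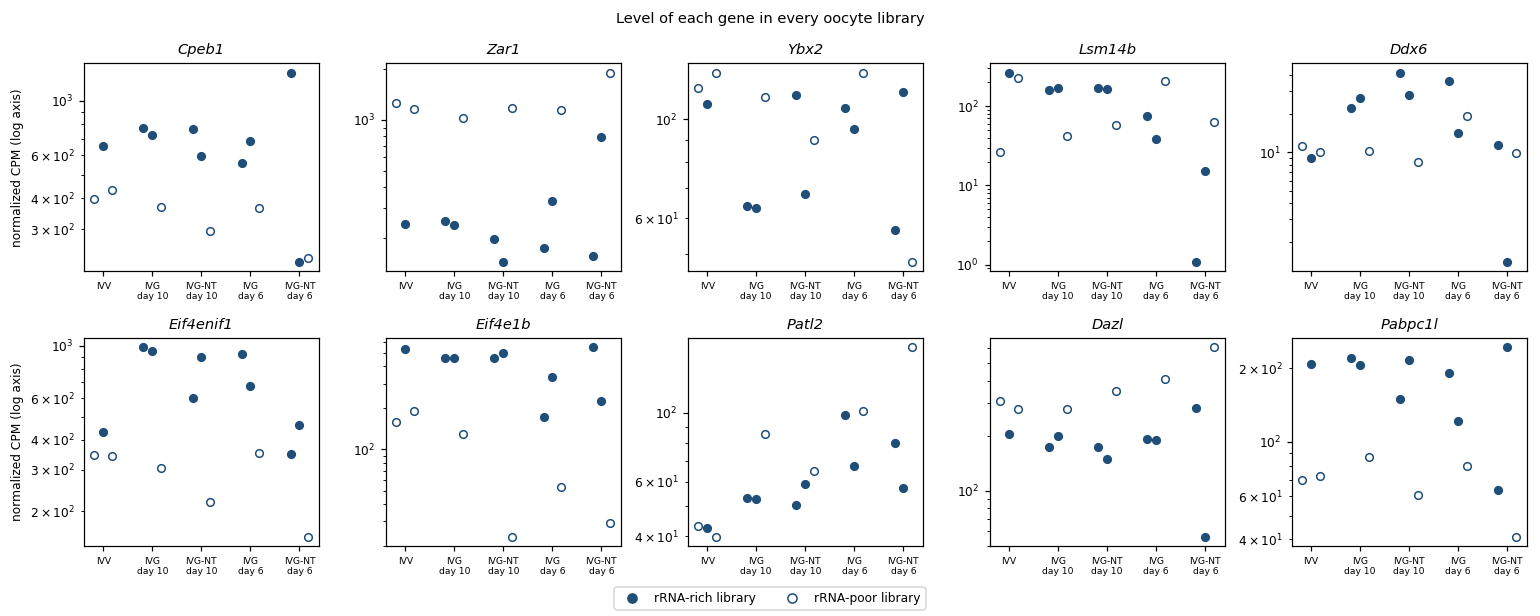
Level of each of the 10 genes in normalized CPM (log axis) in the 15 oocyte libraries, by group, with filled points for the 9 rRNA-rich and open points for the 6 rRNA-poor libraries. Zar1 is above 1000 CPM in every rRNA-poor library and at 145 to 790 in the rRNA-rich ones, whereas Patl2 stays between 39.9 and 162.

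Cpeb1 (chromosome 7, 81347026 to 81455465, minus strand, GRCm38) encodes the protein that binds the CPE and both represses stored mRNAs and switches on their polyadenylation. In IVV replicates 2, 3 and 4 it stood at 398, 651 and 434 CPM. In IVG the libraries held 774, 722 and 368 CPM at day 10 and 559, 688 and 366 at day 6. In IVG-NT they held 767, 594 and 295 CPM at day 10 and 1300, 221 and 229 at day 6. All groups overlapped, and the widest spread lay within IVG-NT day 6 (582 ± 618 CPM, SD, n = 3), where the single high library was one of the 2 shallow ones. The fitted log2 differences of Cpeb1 in the 6 comparisons ran from -0.17 to 0.33, each smaller than its standard error of 0.69.

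Dazl (chromosome 17, 50279395 to 50293636, minus strand), a germ cell RNA-binding protein that promotes translation of stored mRNAs in maturation, showed 308, 203 and 278 CPM in IVV. Its levels were 173, 200 and 281 CPM in IVG day 10 and 174, 149 and 352 in IVG-NT day 10. At day 6 they were 191, 189 and 408 CPM in IVG and 285, 55.9 and 609 in IVG-NT. The rRNA-poor library was the highest of its group in each of the 4 cultured groups, and the group means of 218 to 317 CPM differed by less than the spread inside the groups.

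Ybx2 (chromosome 11, 69935796 to 69941605, plus strand) encodes MSY2, an abundant Y-box protein that packages and stabilises oocyte mRNA. It was at 117, 108 and 127 CPM in IVV and at 64, 63.4 and 112 in IVG day 10. IVG-NT day 10 held 113, 68.1 and 90 CPM, IVG day 6 held 106, 95.1 and 127, and IVG-NT day 6 held 56.6, 115 and 48. IVV was the tightest group (117 ± 9.38 CPM, n = 3), and each cultured group reached into its range. The largest fitted Ybx2 difference, -0.58 for IVG-NT against IVG at day 6, was smaller than its standard error of 0.61.

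Zar1 (chromosome 5, 72576806 to 72581254, minus strand) encodes an RNA-binding protein of the oocyte that takes part in mRNA storage. It was the only one of the 10 whose levels did not overlap between the 2 kinds of library. In the 6 rRNA-poor libraries it stood at 1250 and 1160 CPM (IVV), 1020 (IVG day 10), 1180 (IVG-NT day 10), 1140 (IVG day 6) and 1900 (IVG-NT day 6). The 9 rRNA-rich libraries held 244 CPM (IVV), 251 and 239 (IVG day 10), 199 and 145 (IVG-NT day 10), 176 and 332 (IVG day 6) and 156 and 790 (IVG-NT day 6). The medians were 239 CPM over the rRNA-rich and 1170 over the rRNA-poor libraries, a log2 difference of -2.29, while 13.2% of all genes tested did not overlap between the kinds. Since each group holds both kinds, Zar1 spread widely inside every group, for instance 885 ± 557 CPM in IVV and 505 ± 449 in IVG day 10 (SD, n = 3).

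Lsm14b (chromosome 2, 180024987 to 180035465, plus strand), a partner of the DDX6 helicase in stored mRNA particles, varied most of the 10. Its levels were 26.3, 266 and 229 CPM in IVV, 161, 170 and 42.5 in IVG day 10 and 172, 166 and 57.7 in IVG-NT day 10. At day 6 they were 75.7, 38.3 and 210 CPM in IVG and 1.08, 15.3 and 63.6 in IVG-NT. The 2 lowest values of all belonged to the shallow IVG-NT day 6 libraries, where they rested on 6 and 88 counts, and IVG-NT day 6 overlapped IVG day 6 only through its replicate 3. The IVV value of 26.3 CPM rested on 1258 counts in a library of 42724595 counts.

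Ddx6 (chromosome 9, 44604892 to 44640731, plus strand) encodes a DEAD-box helicase that represses translation in RNA granules. In IVV it stood at 11.1, 9.03 and 10.1 CPM. Cultured to day 10, oocytes held 22, 26.3 and 10.2 CPM without and 41.8, 28.1 and 8.37 with neurotrophin-4. On day 6 the values were 35.6, 14 and 19.2 CPM in IVG and 11.4, 1.39 and 9.9 in IVG-NT. At day 6 every IVG-NT library was below every IVG library, although the lowest rested on 8 counts, while at day 10 the rRNA-poor libraries of both cultured groups were within or below the IVV range and the rRNA-rich ones above it.

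Patl2 (chromosome 2, 122120108 to 122186189, minus strand), an RNA-binding protein needed for oocyte maturation, was the steadiest gene within IVV, at 43.1, 42.4 and 39.9 CPM. IVG day 10 held 53, 52.8 and 85.6 CPM and IVG-NT day 10 held 50.6, 58.9 and 64.9. The day 6 libraries stood at 98, 67.5 and 101 CPM in IVG and 79.7, 57.4 and 162 in IVG-NT. All 12 cultured libraries were thus above the 3 IVV libraries, as 1.18% of all genes were separate between these 12 and 3 in either direction, and those of day 10 and day 6 overlapped.

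Eif4enif1 (chromosome 11, 3202392 to 3244588, plus strand) encodes 4E-T, which holds the cap-binding protein away from the translation machinery. IVV replicates 2, 3 and 4 showed 345, 433 and 342 CPM. At day 10 the levels were 986, 953 and 305 CPM in IVG and 600, 898 and 218 in IVG-NT, and at day 6 they were 920, 678 and 354 in IVG and 349, 464 and 156 in IVG-NT. The lowest library of each of the 5 groups was an rRNA-poor one. Within IVV the spread was small (373 ± 52 CPM, n = 3), and in IVG day 10 it was large (748 ± 384 CPM), with replicate 3 below the IVV range and replicates 1 and 2 above it.

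Eif4e1b (chromosome 13, 54783998 to 54788459, plus strand), an oocyte cap-binding protein related to eIF4E, followed the kinds of library as well. It was at 158, 533 and 190 CPM in IVV. IVG held 462, 464 and 130 CPM at day 10 and 172, 336 and 53.2 at day 6, and IVG-NT held 457, 505 and 23.2 at day 10 and 551, 225 and 29.1 at day 6. The median was 462 CPM over the rRNA-rich and 91.8 over the rRNA-poor libraries, and the ranges of 172 to 551 and 23.2 to 190 CPM overlapped at their ends.

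Pabpc1l (chromosome 2, 164025450 to 164050538, plus strand) encodes ePAB, the poly(A)-binding protein of oocytes and early embryos. Its levels were 69.9, 207 and 72.6 CPM in IVV, 220, 205 and 86.8 in IVG day 10 and 150, 215 and 60.7 in IVG-NT day 10. At day 6 they were 191, 122 and 79.3 CPM in IVG and 63.6, 243 and 41 in IVG-NT. In every group the highest library was an rRNA-rich one, and the groups overlapped throughout.

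Whether culture without neurotrophin-4 changed these genes was asked by comparing IVG day 10 with IVV. None of the 10 was called, and 0 had an unadjusted P under 0.05 in edgeR's quasi-likelihood test or in DESeq2's Wald test, against 2.76% of all genes called. The median log2 fold change of the 10 was 0.30, beside -0.21 over all genes. Eif4enif1 had the largest difference, 748 ± 384 CPM in IVG and 373 ± 52 in IVV (n = 3 each), a log2 fold change of 1.003 (SE 0.67, adjusted p = 1, edgeR). Within the rRNA-rich libraries this difference was 1.16 (2 IVG against 1 IVV), and within the rRNA-poor ones -0.17 (1 against 2). In a fit on the rRNA-rich libraries alone, added after the data were seen, it came to 1.18 (SE 0.43, adjusted p = 1, edgeR) and was called, with 1.68% of all genes called. That fit holds 1 IVV library, which is assumed to vary like the libraries of the other groups. Patl2 was the gene that did not overlap between the groups, as were 11.9% of all genes, and its log2 fold change was 0.61 (SE 0.63, adjusted p = 1, edgeR), with 0.32 within the rRNA-rich and 1.05 within the rRNA-poor libraries. Zar1 at -0.81 (SE 1.02) and Ddx6 at 0.95 (SE 0.97) differed by less than their standard errors.

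IVG-NT day 10 against the same IVV libraries gave 0 calls and 0 genes with an unadjusted P under 0.05, by edgeR as by DESeq2, where 3.29% of all genes were called. The median over the 10 was 0.16, beside -0.19 over all genes. With the kind of library in the fit, these medians were -0.22 and 0.008. Ddx6 stood at 26.1 ± 16.8 CPM in IVG-NT and 10.1 ± 1.04 in IVV (n = 3 each), a log2 fold change of 1.37 (SE 0.98, adjusted p = 1, edgeR). That difference was 1.92 within the rRNA-rich and -0.34 within the rRNA-poor libraries. Patl2 again did not overlap, at 58.2 ± 7.16 against 41.8 ± 1.72 CPM and a log2 fold change of 0.48 (SE 0.63), beside 11.6% of all genes. Eif4e1b changed sign once the kind of library entered the fit, from 0.16 (SE 1.05) to -1.30 (SE 0.62, adjusted p = 1, edgeR), and was not called either way. Zar1 depended on 1 library: its log2 fold change of -0.80 (SE 1.02) became -2.36 (SE 1.11, adjusted p = 0.649, edgeR) and was called, as were 4.77% of all genes, when the rRNA-poor IVG-NT replicate 3 was left out. Only rRNA-rich IVG-NT libraries then remain, against 2 rRNA-poor and 1 rRNA-rich IVV libraries. Within the rRNA-rich libraries the Zar1 difference was -0.52 and within the rRNA-poor ones -0.029. With the kind in the fit it was -0.33 (SE 0.46). Of the markers of other cells, Col1a2 (0, 0 and 0 CPM against 5.34, 1.7 and 1.32) and Acta2 (0, 0 and 0 against 2.07, 0 and 1.65) were called lower in IVG-NT than in IVV. Both comparisons share the IVV libraries and are not independent of each other.

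At day 10 the addition of neurotrophin-4 was tested by comparing IVG-NT with IVG. This was the comparison with the smallest differences: 0 of the 10 genes were called, 0 had an unadjusted P under 0.05 with edgeR or DESeq2, and 0 did not overlap, against 1.24% of all genes called and 3.59% not overlapping. The 10 log2 fold changes ran from -0.39 for Eif4enif1 (SE 0.66) to 0.42 for Ddx6 (SE 0.97), each with an adjusted p of 1 in edgeR, with a median of -0.045 beside 0.009 over all genes. With same-numbered libraries paired, still 0 of the 10 were called, and the calls over all genes went from 261 to 127. Cpeb1 and Eif4enif1 were lower in IVG-NT in all 3 pairs, by little against the spread, and the share of all genes with 1 direction in all 3 is not given here. The stroma marker Col1a2 was called lower in IVG-NT (0, 0 and 0 against 0, 0 and 10.4 CPM), through 1 IVG library. With standard errors of 0.60 to 1.09, differences of this size were not detectable with 3 libraries a group.

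**Figure D2:**
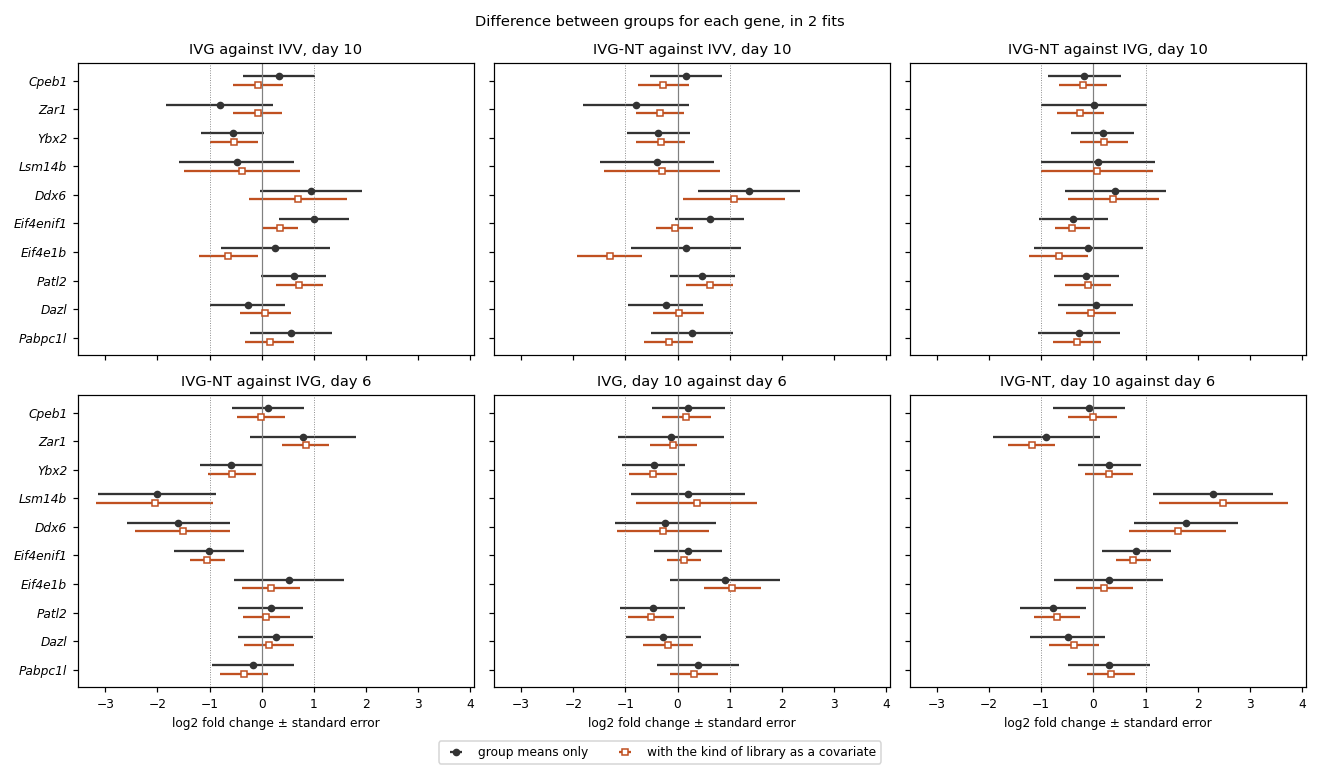
Log2 fold change with its standard error for the 10 genes in the 6 comparisons, from edgeR with group means only (filled circles) and from a fit that also holds rRNA-rich or rRNA-poor (open squares). Lsm14b is farthest from 0 in the comparisons with IVG-NT day 6 (-2.01 and 2.30), and the differences between IVG-NT and IVG at day 10 lie closest to 0.

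At day 6 the same question gave larger differences with larger spread. Again 0 of the 10 were called and 0 had an unadjusted P under 0.05 in edgeR or DESeq2, while 11.6% of all genes were called. Lsm14b was at 26.7 ± 32.8 CPM in IVG-NT and 108 ± 90.5 in IVG (n = 3 each), a log2 fold change of -2.01 (SE 1.14, adjusted p = 0.485, edgeR). It was called when no filter on low counts was applied (-1.996, SE 0.99, adjusted p = 0.438, edgeR, 11% of all genes called) and when the deep IVG-NT replicate 3 was left out (-3.73, SE 1.33, adjusted p = 0.0847, 29.1% of all genes called), which leaves the 2 shallow libraries. Within the rRNA-rich libraries the Lsm14b difference was -3.69 and between the 2 rRNA-poor ones -1.73. Ddx6, with 7.56 ± 5.39 against 22.9 ± 11.3 CPM and a log2 fold change of -1.60 (SE 0.99, adjusted p = 0.524, edgeR), was the 1 of the 10 that did not overlap, as did not 8.45% of all genes. The Ddx6 difference was -2.46 within the rRNA-rich and -0.95 between the rRNA-poor libraries.

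At day 6 Eif4enif1 was at 323 ± 156 CPM in IVG-NT against 651 ± 284 in IVG, with a log2 fold change of -1.01 (SE 0.67, adjusted p = 0.548, edgeR). When the fit held a term for rRNA-rich or rRNA-poor, the estimate was nearly equal and its error smaller (-1.04, SE 0.33, adjusted p = 0.26, edgeR), so Eif4enif1 was called, beside 15.8% of all genes in that fit. It was -0.97 within the rRNA-rich and -1.19 between the rRNA-poor libraries. The median of the 10 was -0.03, beside -0.27 over all genes. DESeq2 size factors moved the median over all genes to 0.003 and that of the 10 to 0.43, so neither median has a direction that holds across scalings. In the fit restricted to rRNA-rich libraries, Lsm14b (-2.85, SE 1.07, adjusted p = 0.237) and Eif4enif1 (-1.048, SE 0.33, adjusted p = 0.179) were called by edgeR, beside 18.1% of all genes, again on the shallow IVG-NT libraries. Markers of other cells were called in both directions at day 6. The granulosa cell markers Fst, Hsd17b1 and Fshr were called lower in IVG-NT, and Amh, Amhr2 and Fst were at 0 in all 3 libraries of that group, with a summed marker level of 49.2 to 161 CPM against 54 to 162 in IVG. The macrophage markers Csf1r (49.2, 0 and 0.408 CPM against 0, 0 and 0.28) and Lyz2 (3.98, 0 and 0 against 0, 0 and 0) and the stroma marker Dcn (0, 0 and 7.35 against 0, 0 and 0.0588) were called higher, each through 1 IVG-NT library. Whether depth or these cells have a part in the differences of Lsm14b, Ddx6 and Eif4enif1 was not tested.

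Between day 6 and day 10 of culture without neurotrophin-4, the 10 genes gave 0 calls, 0 unadjusted P under 0.05 by edgeR or DESeq2 and 0 without overlap, beside 2.9% of all genes called and 7.42% not overlapping. The medians were 0.037 over the 10 and 0.049 over all genes. Eif4e1b had the largest difference, 352 ± 192 CPM at day 10 and 187 ± 142 at day 6 (n = 3 each), a log2 fold change of 0.91 (SE 1.06, adjusted p = 1, edgeR). It was higher at day 10 in all 3 same-numbered pairs, as were Cpeb1 and Pabpc1l, whereas Ybx2 and Patl2 were lower in all 3. The share of all genes with 1 direction in all 3 pairs is not given here, so these directions are descriptions only. The granulosa cell marker Inhba was called higher at day 10 (6.79, 71.3 and 64.3 against 0.72, 0 and 0.5 CPM). Pairing the libraries left 0 of the 10 called and took the calls over all genes from 609 to 360.

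In culture with neurotrophin-4, day 10 against day 6 gave 0 calls among the 10 and 0 unadjusted P under 0.05 in edgeR, beside 12.7% of all genes called, and 0 genes without overlap, beside 11%. Lsm14b had the largest difference, with 132 ± 64.2 CPM at day 10 and 26.7 ± 32.8 at day 6 (n = 3 each), a log2 fold change of 2.30 (SE 1.15, adjusted p = 0.412, edgeR). Ddx6 followed with 1.79 (SE 0.997, adjusted p = 0.458). Within kinds, Lsm14b differed by 5.33 in the rRNA-rich libraries and by -0.14 between the rRNA-poor ones, and Ddx6 by 3.08 and -0.24. The positive differences thus lay in the rRNA-rich libraries, which at day 6 are also the shallow ones, so kind and depth cannot be told apart. Between the replicate 3 libraries neither gene was higher at day 10. Leaving out day 6 replicate 3 gave a called Lsm14b difference of 4.01 (SE 1.35, adjusted p = 0.0703, edgeR, 30.8% of all genes called). Leaving out day 10 replicate 3 gave 2.66 (SE 1.22, adjusted p = 0.442) together with a called Zar1 difference of -2.46 (SE 1.11, adjusted p = 0.442), where 11.2% of all genes were called. Only rRNA-rich day 10 libraries then remain.

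Other fits of the same comparison called other members. DESeq2's Wald test called Patl2 (-1.18, SE 0.58, adjusted p = 0.266), beside 13% of all genes. Without a filter on low counts edgeR called Lsm14b (2.21, adjusted p = 0.326), beside 11.6% of all genes, and with a block for the replicate number it called Lsm14b (3.097, SE 1.28, adjusted p = 0.727), beside 6.23%. In the rRNA-rich libraries Lsm14b was called at 4.40 (SE 1.15, adjusted p = 0.112, edgeR), beside 19.5%. Zar1 had a log2 fold change of -0.90 (SE 1.02, adjusted p = 0.767, edgeR) and, with the kind of library in the fit, -1.18 (SE 0.46, adjusted p = 0.249), which was called, beside 16.9% of all genes. The Zar1 difference was -1.04 within the rRNA-rich and -0.69 between the rRNA-poor libraries. Without the 2 shallow libraries, a fit added after the data were seen, Lsm14b was not called and Patl2 was (-1.57, SE 0.58, adjusted p = 1, edgeR), beside 2.4% of all genes. That fit holds 1 IVG-NT day 6 library, which is assumed to vary like the libraries of the other groups. In comparisons other than this and that of IVG-NT with IVG at day 6, 0 of the 10 were called with the kind in the fit, where 3.83% of all genes were called for IVG against IVV, 4.31% for IVG-NT against IVV, 2.03% for IVG-NT against IVG at day 10, 4.86% for IVG day 10 against day 6 and 8.96% for the interaction described next. The median of the 10 was 0.29 beside 0.40 over all genes, and with DESeq2 size factors it was -0.34 beside 0.037. Granulosa cell markers differed here too, and 5 were called higher at day 10, among them Inhba, Fshr, Fst and Inha. Hbb-bs was called higher (0, 0 and 10.8 CPM against 0, 0 and 0) and Csf1r lower (0.236, 0.0677 and 0.631 against 49.2, 0 and 0.408), each through 1 library. Their part in these results was not tested.

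The difference between the neurotrophin-4 effects at day 10 and day 6 was tested as an interaction. No gene of the 10 was called and 0 had an unadjusted P under 0.05, by edgeR or DESeq2, beside 6.37% of all genes called. Lsm14b (2.10, SE 1.56) and Ddx6 (2.02, SE 1.38) had the largest interaction terms, with adjusted p of 0.946 and 0.921 in edgeR. Without the deep IVG-NT day 6 replicate 3, Lsm14b was called at 3.81 (SE 1.60, adjusted p = 0.187), beside 21.1% of all genes. Fst, Col1a2 and Csf1r were the markers of other cells called in the interaction.

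A ratio of 2 genes inside 1 library does not depend on how libraries are scaled, so 8 of the genes were set against a more widely expressed or related paralog per kb of exon. No stretch of 31 bases was shared between any gene and its paralog. Cpeb1 was above Cpeb4 in all 15 libraries (median log2 ratio 4.07), Pabpc1l above the somatic Pabpc1 in all 15 (median 2.80) and Patl2 above Patl1 in all 15 (median 2.62). Eif4e1b exceeded the general cap-binding gene Eif4e in 13 (median 2.71), and the 2 exceptions were rRNA-poor libraries of IVG-NT. Dazl exceeded Boll in all 15, but Boll was at 0 to 1.62 CPM, so the size of this ratio rests on the 0.5 added to each count. Ybx2 over Ybx1 (median 0.77, higher in 14) and Lsm14b over Lsm14a (median 0.47, higher in 11) were closer to balance. With coding transcript lengths the same counts were 10 for Ybx2, 3 for Lsm14b and 15 for Eif4e1b, and 15 as before for Cpeb1, Patl2, Dazl and Pabpc1l.

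**Figure D3:**
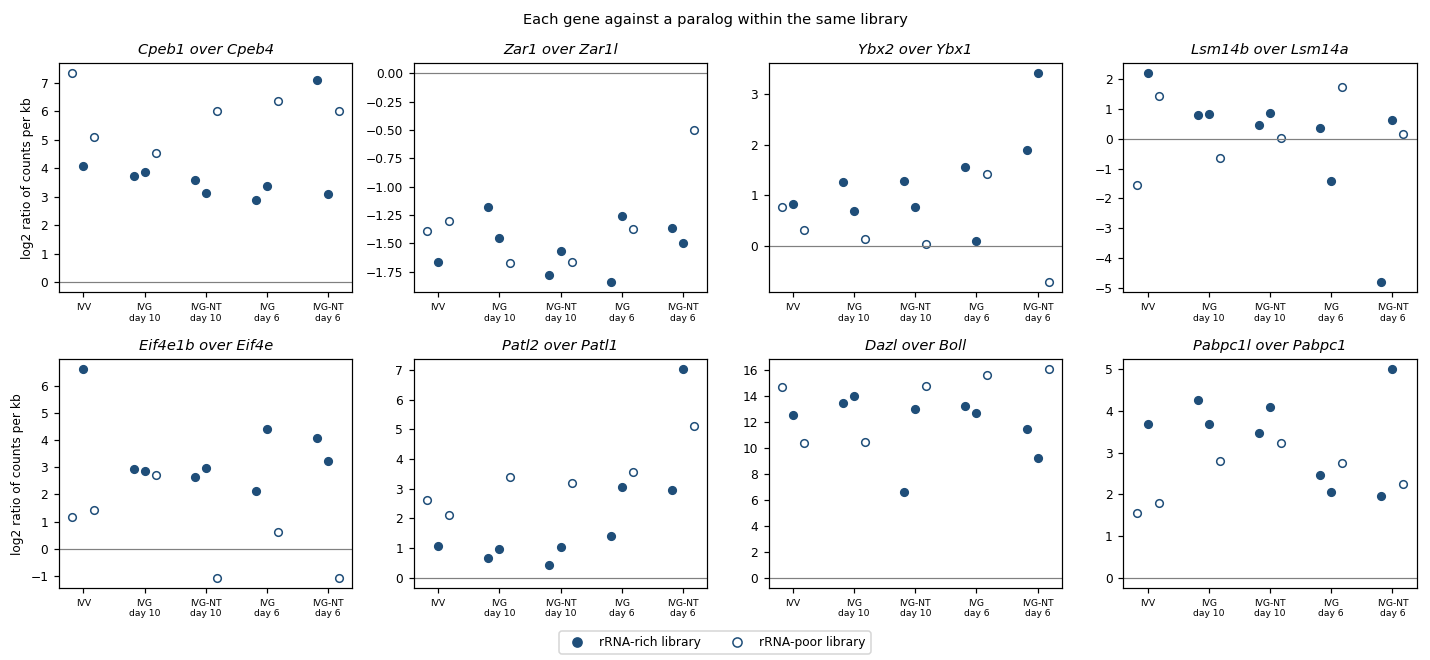
Log2 ratio of counts per kb of exon for each gene over its paralog within each oocyte library, by group, with filled points for rRNA-rich and open points for rRNA-poor libraries. Cpeb1, Patl2, Dazl and Pabpc1l are above 0 in all 15 libraries, and Zar1 over Zar1l stays between -1.84 and -0.50.

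Of 48 pairs of ratio and comparison, 2 did not overlap and 0 had an adjusted p under 0.05, and 3 libraries against 3 cannot give an exact permutation p below 0.1. The largest differences were those of Patl2 over Patl1, at 1.55 ± 1.46 in IVG-NT day 10 against 5.04 ± 2.03 in IVG-NT day 6 (difference -3.48, two-sided exact permutation p = 0.2, adjusted p = 1, n = 3 each) and 5.04 ± 2.03 in IVG-NT against 2.68 ± 1.13 in IVG at day 6 (2.36, exact permutation p = 0.3, adjusted p = 1), and both pairs of groups overlapped. The highest Patl2 ratio of IVG-NT day 6, 7.02 in the shallow replicate 2, rested on 4 Patl1 counts. Replicates 1 and 3 of that group stood at 2.97 and 5.12. Without overlap were 2 smaller differences. Pabpc1l over Pabpc1 was 3.58 ± 0.73 in IVG day 10 and 2.42 ± 0.34 in IVG day 6 (difference 1.16, two-sided exact permutation p = 0.1, adjusted p = 1, n = 3 each). Zar1 over Zar1l was -1.67 ± 0.10 in IVG-NT day 10 and -1.12 ± 0.55 in IVG-NT day 6 (difference -0.55, two-sided exact permutation p = 0.1, adjusted p = 1, n = 3 each).

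For each of the 10, the gene with the most similar profile over the 15 libraries was looked up among 8834 genes averaging at least 10 CPM, as the smallest root mean square difference of centred log2 CPM. For Zar1 this was Zar1l, its own paralog on the same chromosome at 150507055 to 150518164, with a difference of 0.31 against an SD of 1.33 for Zar1 itself. Zar1l stood at 843 and 742 CPM in the rRNA-poor IVV libraries and at 200 in the rRNA-rich one. In culture its 4 rRNA-poor libraries held 843, 965, 766 and 691 CPM and the 8 rRNA-rich ones 104 to 576. Both genes were thus high and low in the same libraries, and IVG-NT day 6 replicate 2 was the highest rRNA-rich library for both. Their log2 ratio per kb of exon varied only from -1.84 to -0.50 while Zar1 ranged 13.1-fold, so Zar1l was the higher in all 15 libraries. With coding transcript lengths the median ratio was -0.18, and Zar1 was the higher in 3 of the 15 libraries. The size of the ratio thus depends on the length used.

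**Figure D4:**
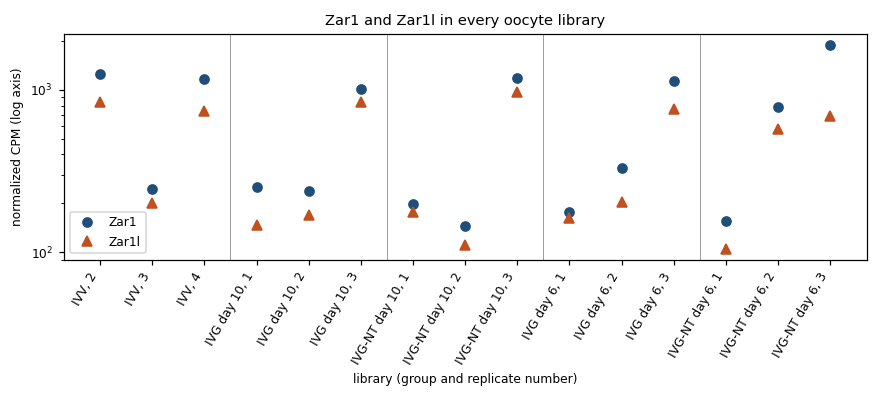
Normalized CPM (log axis) of Zar1 (circles) and Zar1l (triangles) in each of the 15 oocyte libraries, ordered by group and replicate number. Both are high in the 6 rRNA-poor libraries (1020 CPM or more for Zar1 and 691 or more for Zar1l) and low in most rRNA-rich ones.

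The closest genes to the others were Hs2st1 for Cpeb1 (0.27), Lancl1 for Dazl (0.26), Josd1 for Ybx2 (0.23), Tfb2m for Lsm14b (0.89), Cdip1 for Ddx6 (0.40), Stard4 for Patl2 (0.38), Hjurp for Eif4enif1 (0.31), St5 for Eif4e1b (0.62) and Rai14 for Pabpc1l (0.29). Among the 10 themselves the closest pair was Eif4enif1 and Pabpc1l (0.44), which were both higher in the rRNA-rich libraries by the median. All these likenesses were measured across both kinds of library and are given as descriptions.

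The wider pathway was read from lists of genes chosen by function. Of 19 genes of the cytoplasmic polyadenylation machinery, all tested, 0 were called in the 3 day 10 comparisons (medians 0.47, 0.51 and 0.13, beside -0.21, -0.19 and 0.009 over all genes). Most IVV libraries are rRNA-poor and most day 10 cultured ones rRNA-rich. The list medians were not taken within each kind, so kind and culture cannot be told apart in those against IVV. At day 6, Cpsf4 was higher in IVG-NT (113, 104 and 19.2 CPM against 30.6, 12.3 and 21.4) and Cpsf1 lower (2.53, 1.39 and 8.17 against 21.8, 27.5 and 7.68), with log2 fold changes of 1.88 and -2.22. Both are subunits of the complex that recognises the polyadenylation signal, and 2 of 19 called is close to the 11.6% of all genes called in this comparison. In the 2 shallow IVG-NT libraries Cpsf1 rested on 14 and 8 counts. In the deep replicate 3, Cpsf1 stood at 8.17 CPM in IVG-NT and 7.68 in IVG, and Cpsf4 at 19.2 and 21.4. From day 6 to day 10 with neurotrophin-4, Cpsf1 (2.47), the scaffold gene Sympk (3.08) and the poly(A) polymerase gene Papolg (1.91) were called higher and 0 lower, beside 12.7% of all genes called. In replicate 3, the levels at day 10 and day 6 were 6.31 and 8.17 CPM for Cpsf1. They were 24.8 and 27.6 CPM for Papolg and 5.85 and 2.66 for Sympk.

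Of 20 tested genes for mRNA particle and granule proteins, 3 were called lower at day 6 with neurotrophin-4 and 0 higher, beside 11.6% of all genes called. Edc4, an enhancer of mRNA decapping, stood at 81.7, 54.6 and 114 CPM in IVG-NT against 203, 275 and 167 in IVG (log2 fold change -1.37). Igf2bp3, an mRNA-binding protein, stood at 27.6, 14.1 and 31.8 against 88.3, 107 and 43.9 (-1.70), and Igf2bp1 at 0 in all 3 IVG-NT libraries against 2.23, 0 and 0. The groups did not overlap for Edc4 and Igf2bp3, as for 8.45% of all genes, while the Igf2bp1 call rested on 1 library. From day 6 to day 10 with neurotrophin-4, Edc4 (1.90), Lsm14a (1.46) and Igf2bp1 (0.471, 0.271 and 0.701 against 0, 0 and 0 CPM) were called higher, which is 3 of 20 beside 12.7% of all genes. In replicate 3, the levels at day 10 and day 6 were 121 and 120 CPM for Lsm14a and 149 and 114 for Edc4. Igf2bp1 was also called in the interaction, as the 1 gene of the pathway lists. None of these genes had a Benjamini-Hochberg adjusted p under 0.05 over all genes in the filtered edgeR fit of all 15 libraries.

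The 8 tested cap-binding genes and their repressors and the 7 poly(A)-binding genes gave 0 calls in every comparison, beside 1.24 to 12.7% of all genes called. Their list medians were -0.44 and -0.18 at day 6, beside -0.27 over all genes. For IVG against IVV they were -0.22 and -0.14, beside -0.21 over all genes. Of 17 mRNAs known to be stored and recruited in maturation, 1 was called in any comparison. Plat, which encodes tissue plasminogen activator, was called higher at day 10 than at day 6 without neurotrophin-4 (1530, 1760 and 545 against 430, 427 and 516 CPM, log2 fold change 1.48), beside 2.9% of all genes. In the rRNA-poor replicate 3 it stood at 545 and 516 CPM. Zp2, a zona pellucida gene and oocyte marker, was called lower in the same comparison (1610, 1360 and 927 against 3960, 4230 and 1360 CPM, -1.29).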

How the data were processed

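Oocyte RNA was amplified with SMART-Seq2 and sequenced. Per the labels and the study's methods, the authors aligned the reads and deposited 1 table of raw counts per library. The submitters' processing notes name FastQC, HISAT2, edgeR and mm10, and the counting tool and annotation release are not given in the sources used here. A second table of normalized values was not used.

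Counts were analysed in R 4.3.3. Genes passing filterByExpr (minimum count 10) were scaled by TMM and tested with edgeR 4.0.16 (limma 3.58.1) by glmQLFit and glmQLFTest in 1 fit of the 5 group means over all 15 libraries. Gene names, positions and exon lengths came from GENCODE vM21, and 99.5% of 55401 identifiers had a symbol. No exon of the 10 genes overlapped another gene. The sequence of 1 CPE is not reported here. The 10 genes, the other lists and the tests were chosen with earlier results of these data known. The rule for names took all 10 genes, every list gene called (at most 4 per list and comparison), the paralogs and the most similar gene to each. The rule on library kinds set a limit of 5% of counts for the rRNA gene. CPM used a prior count of 2 on the log scale, and the ratios added 0.5 to each count. The scripts were tested on simulated data.

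Alternatives were edgeR with its RLE scaling in place of TMM (called DESeq2 size factors here) and the Wald test of DESeq2 1.42.0. Others were no filter, only the 2 groups compared, a replicate block, the library kind as a covariate and each library left out. Coding transcript lengths, rRNA-rich libraries only and the omission of 2 shallow libraries were added after the data were seen. Same-numbered libraries deviated together in IVG-NT and IVG at day 10 (correlations 0.37, 0.413 and 0.732) and in IVG at day 10 and day 6 (0.23, 0.147 and 0.538), so the numbers were taken as pairs there. In every cultured group replicates 1 and 2 were rRNA-rich and replicate 3 rRNA-poor. The correlations therefore cannot tell a shared experiment from a shared kind of library, and the pairing also follows the kind. No 2 libraries of a group agreed within sampling noise (chi-square per gene 51.5 or more). Counts are of reads after PCR without molecular identifiers, so precision from counts is an upper limit.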

Additional observations from a re-analysis of the deposited data

How the results depend on the processing

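Of 60 log2 fold changes (10 genes, 6 comparisons), 54 kept direction and call with DESeq2 size factors, 57 without a filter, 59 with only the 2 groups compared, 45 with a replicate block, 47 with the library kind as a covariate, 45 in rRNA-rich libraries and 56 without the shallow ones. With 1 library left out, 297 of 360 did. The causes were not tested. Lsm14b at 6 counts and Ddx6 at 8, each in 1 of the shallow libraries, limit the day 6 values.

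The number of the 10 genes called went from 0 to 1 for IVG-NT day 10 against day 6 with DESeq2's Wald test, without a filter, with the block, with the kind as a covariate, in rRNA-rich libraries and without the shallow ones. For IVG-NT against IVG at day 6 it was 1 without a filter, 1 with the kind as a covariate and 2 in rRNA-rich libraries, and for IVG against IVV it was 1 in rRNA-rich libraries. Leaving out 1 library gave 0 to 1 for IVG-NT against IVV, 0 to 2 for IVG-NT day 10 against day 6, 0 to 1 for IVG-NT against IVG at day 6 and 0 to 1 for the interaction. Paralog ratios without overlap numbered 2 of 48, and 2 to 7 with a library left out. Groups of fewer libraries separate more readily, and the share expected without any difference is not given here.

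DESeq2 size factors moved the median over all genes by more than 0.1, from -0.21 to -0.39 (IVG against IVV), -0.19 to -0.36 (IVG-NT against IVV), -0.27 to 0.003 (IVG-NT against IVG at day 6), 0.40 to 0.037 (IVG-NT day 10 against day 6) and 0.33 to 0.013 (interaction). Higher calls over all genes went from 1416 of 2430 to 1867 of 2546 at day 6 and from 1146 of 2661 to 713 of 2707 for IVG-NT day 10 against day 6. Without a filter the calls were 1637, 1580, 4022 and 4250 in place of 579, 691, 2430 and 2661 (IVG and IVG-NT against IVV, IVG-NT against IVG at day 6, IVG-NT day 10 against day 6). With only the 2 groups compared, 970 (IVG against IVV), 66 (IVG-NT against IVG at day 10, 261 before), 451 (day 6) and 706 (IVG-NT day 10 against day 6) were called. With the kind as a covariate 427 and 1022 replaced 261 and 609 (IVG-NT against IVG at day 10, IVG day 10 against day 6), and the Wald test called 153 in place of 261. Leaving out 1 library moved the share of all genes called to 0.843 to 4.56% (IVG against IVV, low without IVG replicate 1 or 2, high without 3), 0.999 to 4.77% (IVG-NT against IVV, low without IVG-NT replicate 1 or 2, high without 3), 0.535 to 1.09% (IVG-NT against IVG at day 10, low without IVG-NT replicate 1 or 2 or IVG replicate 2), 7.47 to 29.1% (day 6, high without IVG-NT replicate 3), 1.33 to 3.91% (IVG day 10 against day 6, low without replicate 2 of either day, high without day 6 replicate 3), 7.1 to 30.8% (IVG-NT day 10 against day 6, low without day 10 replicate 1 or 2, high without day 6 replicate 3) and 4.81 to 21.1% (interaction, high without IVG-NT day 6 replicate 3).

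Directions that changed are given as log2 fold changes. DESeq2 size factors and the Wald test gave -0.08 for Cpeb1 and -0.105 for Eif4e1b (IVG-NT against IVV), 0.32 for Pabpc1l (IVG-NT against IVG at day 6), and -0.18 for Ybx2, -0.40 for Eif4e1b and -0.29 for Pabpc1l (IVG-NT day 10 against day 6). Zar1 in IVG-NT against IVG at day 10 was -0.003 without a filter and -0.006 with only these groups. The kind as a covariate gave -0.079 for Cpeb1, -0.64 for Eif4e1b and 0.064 for Dazl (IVG against IVV), -0.27 for Cpeb1, -0.052 for Eif4enif1, -1.30 for Eif4e1b, 0.022 for Dazl and -0.17 for Pabpc1l (IVG-NT against IVV), -0.26 for Zar1 and -0.042 for Dazl (IVG-NT against IVG at day 10), and -0.012 for Cpeb1 (day 6). The rRNA-rich libraries gave 0.031 for Zar1 and -0.18 for Eif4e1b (IVG against IVV), -0.12 for Eif4e1b and -0.16 for Pabpc1l (IVG-NT against IVV), -0.50 for Zar1, 0.062 for Eif4e1b, 0.057 for Patl2 and -0.20 for Dazl (IVG-NT against IVG at day 10), -0.35 for Patl2 and -0.25 for Dazl (day 6), and 0.001 for Dazl (IVG-NT day 10 against day 6). Without the shallow libraries, Cpeb1 was -1.14 and Eif4e1b -2.58 at day 6, and Cpeb1 1.16 for IVG-NT day 10 against day 6.

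The replicate block reversed 14 values, -0.24 for Cpeb1, 0.81 for Lsm14b, -1.46 for Eif4e1b and -0.26 for Pabpc1l (IVG against IVV), -0.46 for Cpeb1, 0.86 for Lsm14b, -0.02 for Eif4enif1, -2.01 for Eif4e1b and -0.58 for Pabpc1l (IVG-NT against IVV), -0.18 for Zar1 and -0.043 for Dazl (IVG-NT against IVG at day 10), -0.26 for Cpeb1 (day 6), 0.019 for Zar1 (IVG day 10 against day 6) and 0.18 for Cpeb1 (IVG-NT day 10 against day 6). IVV shares only numbers 2 and 3 with the cultures, and same-numbered deviations correlated at -0.278 and -0.488 with IVG and -0.329 and -0.522 with IVG-NT. The kinds are crossed there, as replicate 3 is rRNA-rich in IVV and rRNA-poor in the cultures, and replicate 2 the reverse. In the day 6 pair (0.083, 0.107 and 0.328) and IVG-NT day 10 and day 6 (0.08, 0.066 and 0.26) the numbers were not taken as pairs, and there the block took calls over all genes from 2430 to 1138 and from 2661 to 1309. The block changed no call of the 10 genes other than that of Lsm14b.

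Values whose direction changed with 1 library left out ranged as follows. For IVG against IVV this was -0.032 to 0.96 for Eif4e1b. For IVG-NT against IVV it was -0.19 to 0.46 for Cpeb1, -0.34 to 0.84 for Eif4e1b and -0.17 to 0.92 for Pabpc1l. For IVG-NT against IVG at day 10 it was -0.49 to 0.13 for Cpeb1, -1.56 to 1.05 for Zar1, -0.016 to 0.51 for Ybx2, -0.33 to 0.44 for Lsm14b, -0.11 to 0.84 for Ddx6, -0.57 to 0.45 for Eif4e1b, -0.27 to 0.14 for Patl2, -0.43 to 0.28 for Dazl and -0.70 to 0.093 for Pabpc1l, and at day 6 -1.21 to 0.52 for Cpeb1, -0.23 to 1.90 for Zar1, -0.53 to 1.25 for Eif4e1b, -0.38 to 0.49 for Patl2, -0.64 to 0.80 for Dazl and -1.29 to 0.23 for Pabpc1l. For IVG day 10 against day 6 it was 0 to 0.48 for Cpeb1, -1.17 to 0.999 for Zar1, -0.25 to 1.13 for Lsm14b, -0.51 to 0.23 for Ddx6, -0.092 to 0.58 for Eif4enif1 and -0.50 to 0.20 for Dazl. For IVG-NT day 10 against day 6 it was -0.50 to 1.23 for Cpeb1, -2.46 to 0.11 for Zar1, -0.23 to 1.32 for Eif4e1b, -1.04 to 0.41 for Dazl and -0.16 to 1.38 for Pabpc1l.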
